A study of Mus musculus with 10 samples.

Results

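The genes described here are 8 factors that edit RNA or control the formation of circular RNA: Adar, Adarb1, Adarb2, Qki, Dhx9, Ilf2, Mbnl1 and Clk1. They were taken by symbol from a deposited table of 21956 genes, each matched 1 row, and 8 of 8 passed the filter on low counts that left 14396 genes for testing. The table holds RNA sequencing of hippocampus from mice of the hMapt genotype, which carry the human gene for tau, sampled at 6 months of age and 80 days after injection. In 5 libraries the treatment was injection of AAV-circTau6, an adeno-associated virus carrying a circular RNA derived from the tau gene, and 5 libraries were control. The protocol calls the other animals control-injected without naming the agent. The sources used here do not give the vector's promoter or serotype. No label ties each library to its own animal, so p-values measure only the spread between these libraries, which may in part be technical.

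Total counts lay between 14762952 and 17647138 per library. Markers of excitatory hippocampal neurons were present in every library, with at least 13211 counts of the glutamate transporter gene Slc17a7 and at least 2149 counts of the granule cell gene Prox1. Control replicate 2 and circTau6 replicate 5 were poor in choroid plexus transcripts, at a mean of 1.83 and 2.03 log2 CPM for 6 markers against 5.70 to 7.06 log2 CPM in the others (CPM is the gene's count scaled to the size of its library). A row of the table sums all transcripts of a gene, so circular and linear forms and the editing of a transcript were not separated. In bulk tissue, fewer cells of a type and less RNA per cell cannot be told apart.

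Circular RNAs form by back-splicing, in which the spliceosome joins the end of an exon to the start of an exon upstream. Pairing between inverted repeats in the flanking introns brings the ends together, and proteins such as QKI and MBNL1 can do the same by binding both introns. ADAR enzymes, which turn adenosine into inosine in double-stranded RNA, and the helicase DHX9 loosen such pairs and limit circle formation. ILF2 is part of a complex that binds double-stranded RNA, and CLK1 phosphorylates the SR proteins that guide splice site choice. In brain the best known work of these enzymes is the recoding of receptor and channel messages.

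The editing enzymes act on short stretches of their target messages, and 3 stretches of 30 bases in genes measured here are shown to locate the edited adenosines, printed in capitals. They were read from GENCODE M21 transcripts in GRCm38. The Gria2 site, the recoding site of the AMPA receptor subunit GluA2 and the main target of ADARB1, lies in coding exon 11 of 16 on the minus strand, at chr3:80706897-80706926. The Htr2c stretch holds the 5 edited adenosines of the serotonin 2C receptor and lies in exon 6 of 7, coding, on the plus strand at chrX:147169679-147169708. The Kcna1 site recodes a pore residue of the potassium channel Kv1.1 and lies in the coding part of exon 2 of 2, on the minus strand at chr6:126642142-126642171.
Gria2: gggtgcctttatgcAgcaaggatgcgatat
Htr2c: tgtagcaAtAcgtAAtcctAttgagcatag
Kcna1: tggtgtgctgacaAttgccctgcccgtacc
The capitals are positions known to be edited. The share of edited molecules was not analysed here, and the values for these genes below are levels of the whole message.

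Adar is made from a constitutive and an interferon-inducible start, and the motif GAAANNGAA is the core of the interferon-stimulated response element. RefSeq starts in GRCm38.p6 were matched for 7 of 8 genes, 10 stretches in all, each of 300 bases. On either strand the motif was present in 1 of the 3 Adar stretches and in 0 of the 7 stretches of the other genes, against 8.56% of 32851 stretches of that length over all genes. The copy near the start that holds it lies 33 bases after that start, on the plus strand at chr3:89730751-89730759, and a second copy lies further upstream. The 27 bases around it, at chr3:89730741-89730767, are shown because the level of Adar is set beside interferon response genes below, with the motif in capitals.
Adar: tcaaggaaacGAAAGTGAActctgggg
A match is a description of these letters and not evidence that a factor bound there.

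All 8 genes were well expressed, and their order was led by Qki and closed by Adarb2. On the length-scaled TPM scale (counts scaled by transcript length and library size), Qki had a mean of 180.1 TPM ± 10.6 (SD, n = 10 libraries of both groups), a level above that of 96.4% of all genes in the table. Clk1 followed with 136.8 TPM ± 16.9 (SD, n = 10), Dhx9 with 94.9 TPM ± 4.14 (SD, n = 10) and Adar with 79.2 TPM ± 3.55 (SD, n = 10). Ilf2 had 73.2 TPM ± 1.73 (SD, n = 10), Adarb1 had 68.9 TPM ± 5.97 (SD, n = 10) and Mbnl1 had 62.0 TPM ± 3.97 (SD, n = 10). Adarb2, the family member with no known deaminase activity, had 18.5 TPM ± 1.09 (SD, n = 10), still above 65.1% of genes. Qki lay above Clk1, Clk1 above Dhx9, Dhx9 above Adar and Mbnl1 above Adarb2 in 10 of 10 libraries. Closer neighbours changed places in some libraries. Adar lay above Ilf2 in 9 of 10 libraries, by 6.07 TPM ± 3.79 (SD of the differences, n = 10), and Adarb1 above Mbnl1 in 9, by 6.91 TPM ± 4.93 (SD of the differences, n = 10). Ilf2 lay above Adarb1 in 8, by 4.24 TPM ± 5.25 (SD of the differences, n = 10), the one pair of neighbours that did not differ beyond that spread. Within the editing family, Adar and Adarb1 were thus closer to each other than either was to Adarb2.

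**Figure D1:**
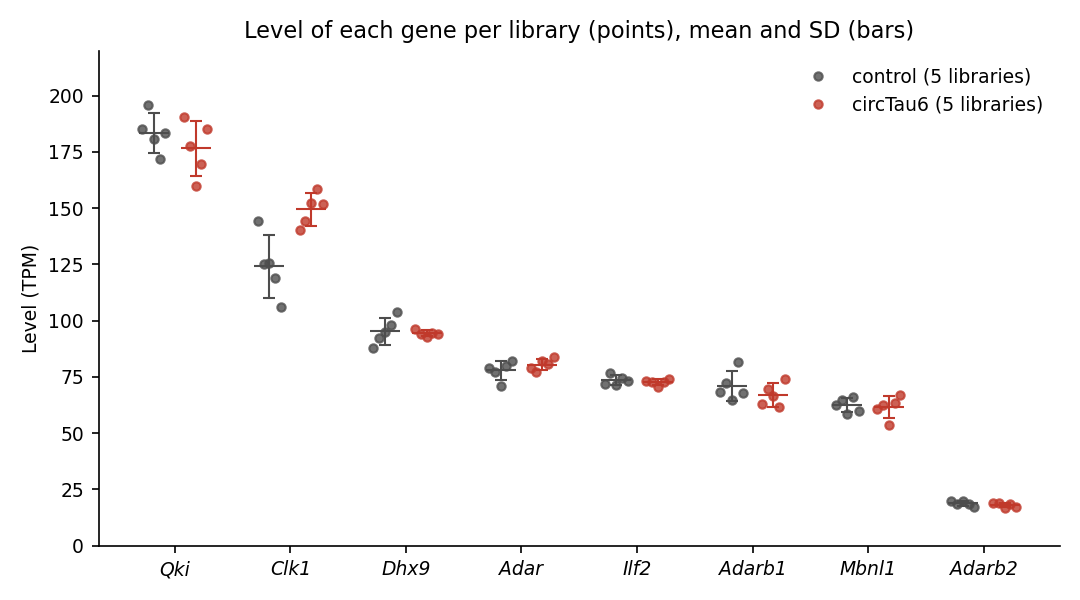
Level of each gene in TPM (vertical axis) for the 5 control and 5 circTau6 libraries (points), with the mean and SD of each group as bars. Qki is highest in every library and Adarb2 lowest, and the groups stand apart most for Clk1, at 124.1 against 149.4 TPM.

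After circTau6 only Clk1 of the 8 genes had an unadjusted p under 0.05, with values 1.20 times the control level, and the other 7 lay within 0.919 to 1.01 times control. None of the 8 passed the test over all genes, edgeR's quasi-likelihood test with Benjamini-Hochberg adjustment at 0.05, which called 0% of 14396 genes. At an unadjusted p under 0.05 the test held 1 of the 8 genes, higher in circTau6, and 4.42% of all genes, with 2.58% higher. DESeq2 called 0 of the 8 and 0.097% of genes, and limma voom 0 of the 8 and 0.0139%. The median log2 fold change was −0.05 over the 8 genes, of which 6 were negative, and 0 over all genes tested. For 0 of the 8 did every circTau6 library lie above, or every one below, all controls, against 0.472% and 0.368% of all genes.

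Clk1 (ENSMUSG00000026034), a kinase of SR splicing proteins whose own message is known for retained introns, showed the largest difference of the 8 genes in either direction. It had 101.4, 86.8, 91.5, 83.9 and 74.3 CPM in control replicates 1 to 5. In circTau6 replicates 1 to 5 the values were 98.8, 102.9, 106.9, 110.9 and 105.0 CPM. The lowest circTau6 library, replicate 1, lay between the highest control, also replicate 1, and the other 4 controls. In CPM the groups thus overlapped by that pair alone, and 4 of 5 circTau6 libraries lay above every control. In TPM 3 of 5 did, with control replicate 1 at 144.43 TPM and circTau6 replicates 1 and 2 at 140.45 and 144.26 TPM. The control mean was 87.6 CPM ± 9.97 (SD, n = 5), and circTau6 libraries averaged 104.9 CPM ± 4.50 (SD, n = 5). On counts, the log2 fold change was 0.26 ± 0.07 (SE) with a 95% interval of 0.12 to 0.41, an unadjusted p of 0.00156 and an edgeR adjusted p of 0.792. By p-value Clk1 stood at rank 27 of 14396 genes. The exact two-sided permutation test of its log2 CPM gave p = 0.0159, where the smallest p that 252 sets allow is 0.00794. The difference kept its sign and an unadjusted p of at most 0.00741 in all 19 fits, between 0.21 and 0.32. The authors' deposited table gives Clk1 a log2 fold change of 0.268 on TPM, a p of 0.000778 and an FDR of 0.374. The gene lies on chromosome 1 from 58410189 to 58424066 in GRCm38, on the minus strand, and its exons overlap no other annotated gene. Of its 13 annotated transcripts 1 is coding and 7 are retained-intron forms, which the count does not separate. Its RefSeq start sequence was not used here.

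Of 4 microglial markers, 3 had higher values with an unadjusted p under 0.05 in edgeR's test, against 2.58% of all genes. Of these markers 0 passed over all genes. Their summed level was 182.7 to 202.5 CPM in control and 197.9 to 216.8 CPM in circTau6 libraries, which overlap. The mean log2 CPM of the 4 did not overlap, at 5.31 to 5.455 in control and 5.465 to 5.574 in circTau6 libraries. None of the 4 was at 0 in any library. Csf1r, the receptor of microglial growth factors, differed by 0.17 ± 0.06 (SE) on the log2 scale, at an adjusted p of 0.981 in edgeR. Tmem119 differed by 0.25 ± 0.08 (SE) and Cx3cr1 by 0.17 ± 0.07 (SE), while P2ry12, a purine receptor of resting microglia, had −0.03 ± 0.12 (SE). For Csf1r and Tmem119, but not Cx3cr1 and P2ry12, every circTau6 library lay above every control in CPM, against 0.472% of all genes. The part of microglial RNA in the Clk1 difference was not tested.

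**Figure D2:**
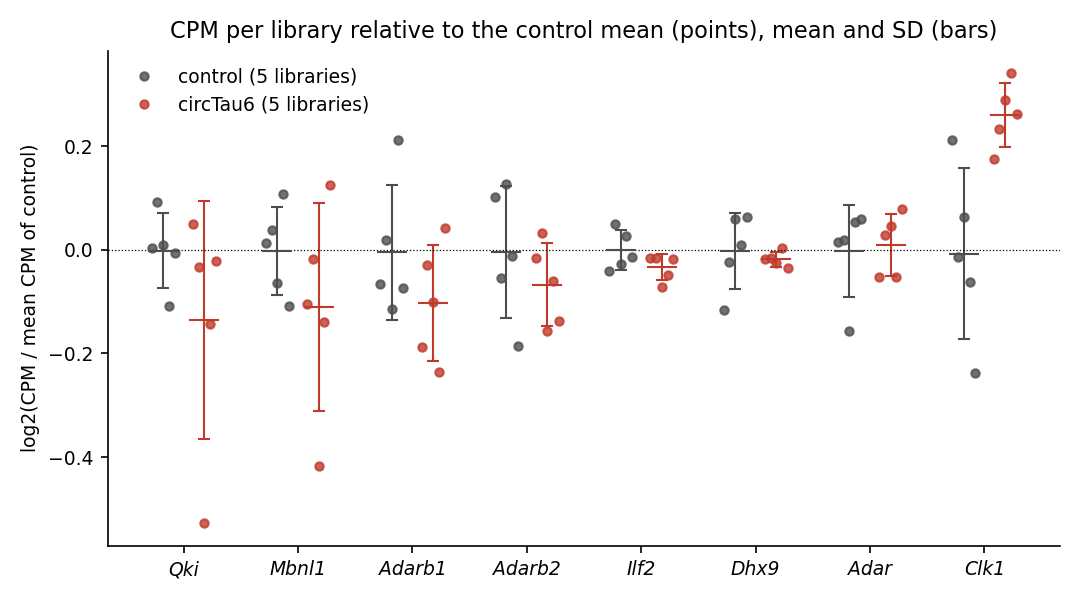
CPM of each library relative to the mean of the control libraries, on a log2 axis, for the 5 control and 5 circTau6 libraries (points), with mean and SD as bars, genes ordered by their difference. Clk1 is the gene with 4 of 5 circTau6 libraries above every control, and circTau6 replicate 3 is the low point of Qki and Mbnl1, at 310.99 and 81.7 CPM.

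The other kinases of SR proteins gave no call. Of the 8 listed kinases besides Clk1, 0 passed the test in either direction, 5 had positive log2 fold changes and the median was 0.01. Clk3 had 43.7 TPM ± 3.07 (SD, n = 5) in control and 49.5 TPM ± 2.61 (SD, n = 5) in circTau6 libraries, and a log2 fold change on counts of 0.10 ± 0.06 (SE). Clk2 had 0.08 ± 0.07 (SE) and Srpk2 −0.06 ± 0.05 (SE). Srpk3, with only 14 to 40 counts per library, had −0.26 ± 0.32 (SE), as far from 0 as Clk1 but with a 95% interval of −0.94 to 0.42. Clk4, the kinase closest to Clk1, had a log2 fold change of 0.03 ± 0.07 (SE), with a 95% interval of −0.12 to 0.18. The difference between Clk1 and these kinases was not tested. Of 11 SR proteins and related splicing factors, the substrates of these kinases, 0 passed, 7 were negative and the median was −0.03. Srsf9 had the lowest p of them, with 47.2 TPM ± 2.92 (SD, n = 5) in control, 41.3 TPM ± 3.93 (SD, n = 5) in circTau6 libraries and a log2 fold change of −0.18 ± 0.08 (SE). Srsf3 had −0.09 ± 0.06 (SE) and Srsf4 0.06 ± 0.05 (SE).

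Adar (ENSMUSG00000027951), which encodes the enzyme that edits most repeat-derived double-stranded RNA, did not differ between the groups beyond its spread. Control replicates 1 to 5 had 180.7, 181.2, 160.4, 185.7 and 186.3 CPM. circTau6 replicates 1 to 5 had 172.5, 182.5, 184.6, 172.4 and 188.8 CPM. Control replicate 3 was the lowest of all 10, and the other 9 lay between 172.4 and 188.8 CPM in overlapping groups. In edgeR the log2 fold change was 0.01 ± 0.05 (SE), with a 95% interval of −0.09 to 0.11 that corresponds to 0.938 to 1.08 times the control level, and without control replicate 3 it was −0.02. The gene lies on chromosome 3 from 89715022 to 89753446, and 1365 of its exonic bases overlap the opposite-strand gene Chrnb2. The labels call the libraries strand-specific, but the sources used here do not say whether the counting used the strand.

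Adarb1 (ENSMUSG00000020262), which encodes the enzyme for the Gria2 site shown above, was spread more widely. Control replicates 1 to 5 had 180.9, 192.0, 174.9, 219.4 and 179.9 CPM. The circTau6 libraries had 166.3, 185.5, 176.7, 161.0 and 195.0 CPM. The highest library was a control and the 2 lowest were circTau6, but 3 circTau6 libraries lay inside the control range. The log2 fold change was −0.10 ± 0.07 (SE), with a 95% interval of −0.24 to 0.04 and an adjusted p of 0.981 in edgeR, and without control replicate 4 it was −0.04.

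Adarb2 (ENSMUSG00000052551), whose product binds RNA without known editing and marks a class of interneurons, had 526 to 760 counts per library. Control replicates 1 to 5 had 42.9, 38.5, 43.6, 39.6 and 35.1 CPM. In circTau6 replicates 1 to 5 the values were 39.5, 40.9, 35.8, 38.3 and 36.3 CPM. All 5 circTau6 values lay within the control range. On counts, the log2 fold change was −0.07 ± 0.07 (SE), with a 95% interval of −0.21 to 0.07, and it was −0.03 without control replicate 3 and −0.11 without control replicate 5. Adarb1 lies on chromosome 10 from 77290726 to 77418270 and Adarb2 on chromosome 13 from 8202866 to 8768747, and neither shares exonic bases with another annotated gene.

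Messages that these enzymes edit also gave no call. Of 21 listed targets 0 passed the test, 10 were positive and 11 negative, and the median log2 fold change was −0.02. At an unadjusted p under 0.05 the test held 1 higher and 1 lower of the 21, against 4.42% of all genes in either direction. Gria2 had 400.4 TPM ± 14.5 (SD, n = 5) in control and 393.3 TPM ± 35.5 (SD, n = 5) in circTau6 libraries, and a log2 fold change on counts of −0.12 ± 0.10 (SE). Kcna1 had 49.8 TPM ± 1.49 (SD, n = 5) in control, 46.1 TPM ± 3.35 (SD, n = 5) in circTau6 libraries and a log2 fold change of −0.12 ± 0.06 (SE). Flna, which encodes the actin crosslinker filamin A, had the lowest p of the targets, at 0.20 ± 0.08 (SE) on the log2 scale, unadjusted p = 0.0285 in edgeR's test.

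Interferon response genes had higher mean values in circTau6 libraries, without a call over all genes. In edgeR the log2 fold change was above 0 for 10 of 10 listed genes, against 7183 of the 14396 genes tested. The median of the 10 was 0.45, and 0 passed the test over all genes. At an unadjusted p under 0.05 the test held 2.58% of all genes as higher and 1 of the 10. That gene was Isg15, a ubiquitin-like protein induced by interferon, with 9 to 47 counts per library and a log2 fold change of 0.95 ± 0.32 (SE). Oasl2, another interferon-induced gene, had 0.76 ± 0.36 (SE). Averaged over the 10 genes, control libraries stood at 2.28 log2 CPM ± 0.75 (SD, n = 5), while the circTau6 mean was 2.87 log2 CPM ± 0.42 (SD, n = 5). The highest library of all was control replicate 1, at 3.48 log2 CPM, so the groups overlapped. Over the 10 libraries Adar and this mean had a Pearson r of −0.18 (permutation p = 0.645) and a Spearman rho of −0.49 (permutation p = 0.155). Over the 4 such relations computed, the adjusted p was 0.730 for r and 0.357 for rho. Without control replicate 3 and circTau6 replicate 4, the libraries farthest from the median of Adar, r was −0.61.

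Qki (ENSMUSG00000062078), an RNA-binding protein of glia that promotes circle formation and myelin gene splicing, had its lowest value in a circTau6 library. Control replicates 1 to 5 had 449.7, 478.3, 451.1, 415.7 and 446.7 CPM. circTau6 replicates 1 to 5 had 463.9, 438.2, 310.99, 405.9 and 441.6 CPM. Replicate 3 stood far below the rest, replicate 4 was just under the lowest control and the other 3 lay in the control range. The log2 fold change was −0.12 ± 0.09 (SE), with a 95% interval of −0.32 to 0.08, and it was −0.04 without circTau6 replicate 3 and −0.06 on log2 TPM with limma. On the TPM scale circTau6 replicate 3 was nearer the others, at 160.04 TPM against 169.46 to 196.04. The summed level of 6 oligodendrocyte markers was 4365 to 5361 CPM in control and 4691 to 5062 CPM in circTau6 libraries, and 0 of 6 passed the test. Qki and the mean of these markers had r = −0.10 (permutation p = 0.730) and rho = 0.12 (permutation p = 0.760) over the 10 libraries, with adjusted p of 0.730 and 0.760, and r was −0.19 without circTau6 replicates 3 and 4. The gene, named Qk in GENCODE M21, lies on chromosome 17 from 10202601 to 10319854.

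Mbnl1 (ENSMUSG00000027763), a splicing regulator that also promotes a circle from its own gene, followed Qki in circTau6 replicate 3. Control replicates 1 to 5 had 110.2, 112.2, 104.4, 117.7 and 101.3 CPM. The circTau6 libraries had 101.6, 107.9, 81.7, 99.1 and 119.1 CPM. The lowest and the highest of all 10 libraries were thus both circTau6. On counts, the log2 fold change was −0.10 ± 0.08 (SE), with a 95% interval of −0.28 to 0.07. On log2 TPM with limma the difference was −0.02. Without circTau6 replicate 3 it was −0.03 on counts, and without circTau6 replicate 5 it was −0.16 with an unadjusted p of 0.0419. Mbnl1 lies on chromosome 3 from 60472830 to 60629750.

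Other regulators of back-splicing gave no call. Of 18 listed, 16 passed the filter on low counts, and Mbnl3 and Esrp1, with at most 7 and 5 counts in a library, did not. Of the 16 tested, 0 passed in either direction, 10 were negative and the median was −0.01. Mbnl2, the paralog of Mbnl1, had a log2 fold change of −0.12 ± 0.08 (SE), and Hnrnpm, a repeat-binding splicing factor, −0.08 ± 0.05 (SE).

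**Figure D3:**
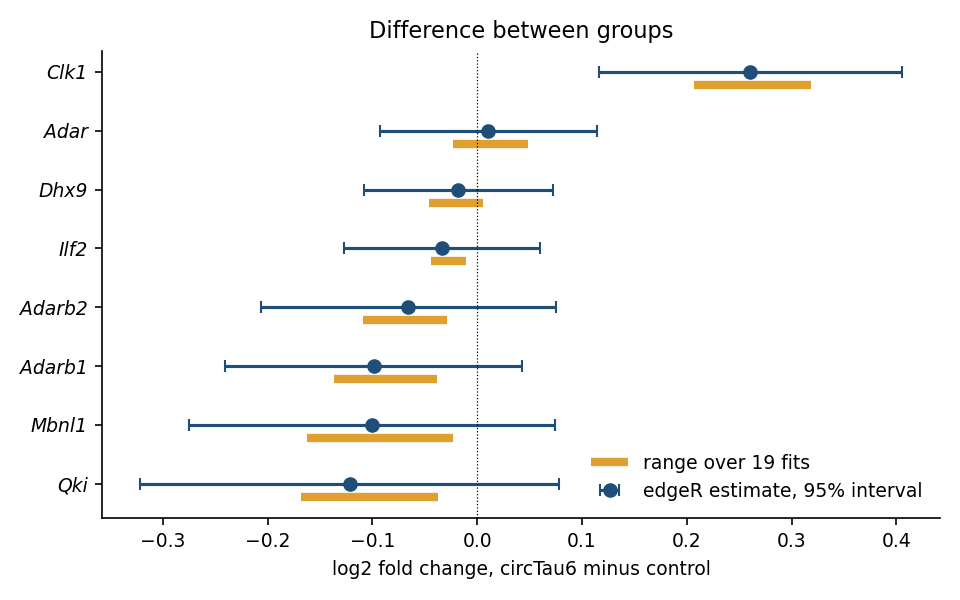
Log2 fold change of each gene, circTau6 minus control, with its 95% interval (blue) and the range of the estimate over 19 fits (orange), 0 marked by a dotted line. The interval of Clk1 runs from 0.12 to 0.41 and those of the other 7 genes include 0.

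Dhx9 and Ilf2 were the steadiest of the genes. Dhx9 (ENSMUSG00000042699), a helicase that unwinds repeat-derived RNA pairs and partners ADAR, had 156.2, 166.7, 176.5, 170.3 and 176.8 CPM in control replicates 1 to 5. In circTau6 replicates 1 to 5 the values were 167.4, 167.5, 166.3, 169.8 and 165.2 CPM. All circTau6 values lay within the control range and closer together than the controls, at an SD of 1.71 against 8.47 CPM, a difference in spread that was not tested. In edgeR the log2 fold change was −0.02 ± 0.04 (SE), with a 95% interval of −0.11 to 0.07. The gene lies on chromosome 1 from 153455758 to 153487660.

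Ilf2 (ENSMUSG00000001016), a subunit of a complex that binds double-stranded RNA, had 58.9, 62.7, 59.4, 61.7 and 59.9 CPM in control replicates 1 to 5. circTau6 replicates 1 to 5 had 59.8, 59.8, 57.6, 58.5 and 59.8 CPM. The groups overlapped, with circTau6 replicates 3 and 4 just below the lowest control. The log2 fold change was −0.03 ± 0.04 (SE), with a 95% interval of −0.13 to 0.06. Over all 10 libraries the coefficient of variation of Ilf2 was 2.45%, and of 2298 genes within 0.5 log2 CPM of its level 0.305% varied less. At the other end, 95.3% of genes at a like level varied less than Clk1 (12.2%), whose coefficient pools both groups. The shares were 94.2% for Qki (10.9%), 91.9% for Mbnl1 (10.2%) and 88.3% for Adarb1 (8.99%). Within groups, the SD of Clk1 was 9.97 CPM around a mean of 87.6 CPM in control libraries. In circTau6 libraries it was 4.50 CPM around 104.9 CPM. For Qki and Mbnl1 the lowest CPM was that of circTau6 replicate 3. On the TPM scale the coefficients were 12.4% for Clk1, 8.66% for Adarb1, 6.4% for Mbnl1 and 5.9% for Qki. Ilf2 lies on chromosome 3 from 90476126 to 90488379, and 354 of its exonic bases overlap the opposite-strand gene Snapin.

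Proteins that bind double-stranded RNA beside these had differences of either sign. Of 12 listed, 10 passed the filter, without the testis genes Adad1 and Adad2, which had at most 3 and 4 counts in a library. Of the 10 tested, 0 passed, 5 were positive and 5 negative, and the median was 0.00. Zfr, a zinc finger protein that binds RNA, had −0.09 ± 0.06 (SE), Drosha, the nuclease that starts microRNA processing, 0.06 ± 0.05 (SE) and Stau2, an RNA transport protein of dendrites, −0.04 ± 0.05 (SE).

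The splicing machinery, and the proteins that export and degrade circular RNA, also gave no call. Of 12 core spliceosome genes 0 passed, 9 were positive and the median was 0.02. Snrnp70, the U1 protein, had the lowest p of these, with a log2 fold change of 0.09 ± 0.04 (SE), an unadjusted p of 0.0506 and every circTau6 library above every control in CPM, though not in TPM. Snrpb had 0.10 ± 0.06 (SE) and Cdc40 −0.08 ± 0.08 (SE). Of 13 genes for export and turnover of circular RNA 0 passed, 7 were negative and the median was 0.00. G3bp2, a stress granule protein, had −0.08 ± 0.04 (SE), Dis3, an exosome nuclease, 0.12 ± 0.07 (SE), and Ddx39b, the helicase that exports long circles, 0.05 ± 0.04 (SE).

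**Figure D4:**
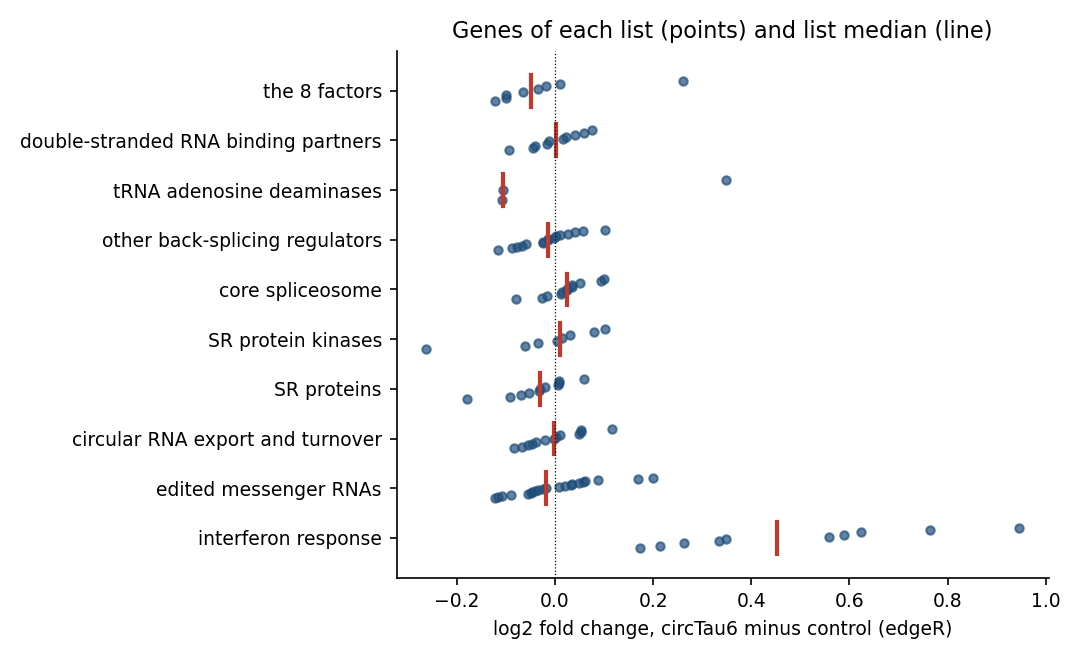
Log2 fold change of every tested gene (points) in the list of the 8 factors and 9 related lists, with the median of each list as a red line. The interferon response is the list with every gene above 0 and a median of 0.45. The medians of the other lists lie between −0.11 and 0.02.

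The 8 genes did not form 1 block across libraries. Of 28 pairs of log2 CPM over the 10 libraries, 4 had a permutation p under 0.05 for Pearson's r and 0 did after adjustment over the 28, where each of the 4 had an adjusted p of 0.284. Ilf2 and Mbnl1 had r = 0.70 (permutation p = 0.0299) and rho = 0.52 (permutation p = 0.132), and r was 0.55 without control replicate 2 and circTau6 replicate 3. Qki and Mbnl1 had r = 0.76 (permutation p = 0.0463) and rho = 0.32 (permutation p = 0.370), and r was −0.42 without circTau6 replicates 3 and 4. The relation rests on circTau6 replicate 3: without it alone r was 0.034, without circTau6 replicate 4 alone 0.75, and on log2 TPM it was 0.48. Adarb1 and Ilf2 had r = 0.64 (permutation p = 0.0473) and rho = 0.54 (permutation p = 0.113), and r was 0.45 without control replicate 4 and circTau6 replicate 4. Adar and Adarb2 had r = −0.63 (permutation p = 0.0487) and rho = −0.59 (permutation p = 0.0799), and r was −0.50 without control replicate 3 and circTau6 replicate 4 and −0.39 without control replicate 3 alone. By rank the strongest pairs were Adarb1 and Mbnl1 (rho = 0.84, permutation p = 0.00341, adjusted 0.0955, with r = 0.61, and 0.58 without control replicate 4 and circTau6 replicate 4) and Ilf2 and Clk1 (rho = −0.81, permutation p = 0.00725, adjusted 0.101, with r = −0.62, and −0.59 without control replicate 2 and circTau6 replicate 3). The latter pools groups between which the Clk1 values differ, and its r was −0.42 with the group means removed and −0.35 on log2 TPM.

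Adarb1 and Adarb2 were set beside markers of the cells and tissue in which they are known to be high. Adarb1 and 4 thalamic markers, of tissue next to the hippocampus, had r = 0.51 (permutation p = 0.137) and rho = 0.47 (permutation p = 0.179), with adjusted p of 0.548 and 0.357, and r was 0.11 without control replicate 4 and circTau6 replicate 4. Leaving out 1 library, r was lowest at 0.21 without control replicate 4 and highest at 0.73 without circTau6 replicate 3. Summed thalamic markers were 50.6 to 113.8 CPM in control and 53.9 to 109.0 CPM in circTau6 libraries. Adarb2 and 5 markers of interneurons from the caudal ganglionic eminence had r = −0.22 (permutation p = 0.544) and rho = −0.20 (permutation p = 0.585), with adjusted p of 0.730 and 0.760, and r was 0.18 without control replicates 3 and 5. These markers summed to 54.0 to 72.1 CPM in control and 57.6 to 78.1 CPM in circTau6 libraries.

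For each gene the most similar of 10333 other genes with a mean of at least 3 log2 CPM were found by Pearson's r of log2 CPM over the 10 libraries after removal of the group means, given as a description. They were Bmi1, Vstm2a and Arhgap5 for Qki, at r of 0.974 to 0.983. For Mbnl1 they were Nipa1, Cep135 and Ggps1, at 0.959 to 0.962. For Adarb1 they were Dexi, Adcy3 and Ncbp2, at 0.923 to 0.970, for Adar Cdh22, Slc49a4 and Cit, at 0.924 to 0.939, and for Adarb2 Rsrp1, Hsd11b1 and Fam135a, at 0.927 to 0.934. For Ilf2 they were Rgs7, Gramd1b and Aak1, at 0.939 to 0.953, for Dhx9 Kdm5d, Swt1 and Slc35a4, at 0.901 to 0.921, and for Clk1 Trappc12, Coro1c and Taldo1, at 0.897 to 0.915. None of the 8 factors was among the 3 genes most similar to another of them. With only 3 of 10333 genes taken for each, that absence cannot show whether the factors vary together.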

How the data were processed

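The table holds 10 hippocampus libraries, 5 control and 5 circTau6, grouped by their labels. Per the labels' protocols, strand-specific libraries were made after rRNA depletion from RNA of integrity number over 8.0, and sequenced paired-end at 150 bp. StringTie 1.3.1 and RSEM appear, with no role, in the submitters' processing notes. The sources used here name no aligner, build or annotation. The deposited counts are unnormalised whole numbers, used as deposited. The deposited TPM values are scaled within each library by the authors. The log2 fold change deposited by the authors is the ratio of their group means of TPM, and their deposited p-value and FDR come from a test that the sources used here do not name.

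Groups were compared in edgeR 4.0.16 (R 4.3.3) with filterByExpr, TMM scaling and the robust quasi-likelihood test, adjusted over 14396 genes at 0.05. The SE is the fold change over the root of F, and intervals are 95%. CPM uses TMM-scaled totals, and log2 CPM a prior count of 2. Correlations used 100000 permutations. At the shallowest library 3 counts equal 0.203 CPM, for counting error only. Alternatives were DESeq2 1.42.0, limma 3.58.1 (voom with quality weights, and log2 TPM with a pseudocount of 0.1), other scalings, no filter, a replicate block, and leaving out libraries. The edgeR script was tested on simulated data. It called 15 of 50 genes changed 1.25-fold, 32 of 50 at 1.5-fold, 40 of 50 at 2-fold and 48 of 50 at 4-fold. It also called 10 unchanged genes, and folds below 1.25 were not simulated. All sizes were simulated in the same data and adjusted together, so these counts do not give the chance of calling a lone changed gene. Named genes were the 8 factors, up to 3 genes of lowest p per list, and the 3 most similar genes per factor; Clk4, Srpk3, Gria2 and Htr2c were added after their values were seen, as were the marker genes Slc17a7, Prox1, Csf1r, Tmem119, Cx3cr1 and P2ry12. Some genes that the rule picks are not reported here. The 8 factors and all lists were chosen with earlier results of these data known. Coordinates are those of GENCODE M21 in GRCm38, matched by gene ID.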

Additional observations from a re-analysis of the deposited data

Results flagged for a closer look

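Control replicate 3 stood apart from its group for Adar, at 160.4 CPM against 180.7 to 186.3 CPM in the remaining controls. It was also apart in the mean of the caudal ganglionic eminence interneuron markers, at 2.80 log2 CPM against 3.15 to 3.28 log2 CPM. These were 2 of 24 sets of 5 libraries inspected, of which about 5% would be picked out by chance.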

How the results depend on the processing

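Over the 18 alternatives, 0 of the 8 factors were called in any fit. The number of genes called over the whole table was 0 in the edgeR fit, 14 with DESeq2, 2 with limma voom, 2 with library totals alone, 2 without a filter on low counts and 3 without both choroid-poor libraries. Leaving out 1 library at a time gave 0 to 4 genes, with 1 without control replicate 1, 1 without control replicate 3 and 4 without circTau6 replicate 5. With the replicate number as a block 4 genes were called, and Clk1 had 0.27 with an edgeR adjusted p of 0.856. The labels name no batch that same-numbered libraries share. The correlations of their deviations from the group means were −0.08 to 0.14, and in 0 of 5 cases was the best match the library's own number. With only 5 such pairs, these values cannot show whether a batch was shared. Differences near 0 changed sign. That of Adar was −0.0074 with limma voom, −0.0047 without both choroid-poor libraries, and −0.023, −0.00011 and −0.0073 without control replicate 3, circTau6 replicate 3 and circTau6 replicate 5. Leaving out 1 library at a time moved Adar between −0.023 and 0.027, and Dhx9 between −0.046 and 0.00051. That of Dhx9 was 0.0053 with library totals alone and 0.00051 without control replicate 3. The other 6 factors kept their direction in all 19 fits. The relation of Qki to oligodendrocyte markers had r = 0.13 without control replicate 2 (lowest −0.29, without control replicate 1), and that of Adarb2 to interneuron markers 0.15 without control replicate 3 (lowest −0.58, without circTau6 replicate 3). The r of Qki and Mbnl1 was 0.034 without circTau6 replicate 3. The cause of these shifts was not tested. The adjusted p of Clk1 ranged from 0.220 to 1 over the fits.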

Other observations

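The enzymes that deaminate adenosine in transfer RNA, relatives of the ADAR family, were at low levels and 0 of 3 passed the edgeR test. Adat3, the non-catalytic partner subunit, had 1.49 TPM in control and 1.77 TPM in circTau6 libraries, with a log2 fold change of 0.35 ± 0.35 (SE). Adat1 had −0.11 ± 0.11 (SE) and Adat2 −0.11 ± 0.15 (SE). Htr2c, an edited message and a gene known to be strong in choroid plexus, had 648 to 1980 counts per library and a log2 fold change of −0.05 ± 0.33 (SE), the least certain of the 21 edited messages.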
